A study of Homo sapiens with 8 samples.

Results

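The genes of the ISG15 conjugation pathway were ISG15, UBA7, UBE2L6, HERC5, HERC6 and USP18, and they were followed through acetylation of histone H3 at lysine 27 (H3K27ac), a chromatin mark of active promoters and enhancers, by ChIP-seq. A peak was taken for a gene when the authors named the gene's transcription start site (TSS) inside it or within 50 kb of it, or when it overlapped the gene on GRCh38. This gave 7 of the 31961 deposited peaks, 1 over the start of each of the 6 genes and 1 more peak 9.53 kb upstream of HERC6. The libraries came from clones of the human pancreatic ductal adenocarcinoma line CFPAC1, an established cell line, each clone grown out by dilution after infection with the lentiCRISPRv2 plasmid. IRF1-guide clones 11 and 13 carried wild-type Cas9 with a guide targeting the transcription factor gene IRF1, and control clones 1 and 4 carried the plasmid with no guide named in the labels. Each clone gave 1 library after hIFNb (taken to be human interferon beta) for 2 hours and 1 library without it, which makes 4 groups of 2 libraries. The clones all descend from 1 cell line, and the labels do not say whether an IRF1-guide clone lacks the IRF1 protein.

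ISG15 is a small protein built of a pair of ubiquitin-like domains, and it is attached to other proteins by a chain of enzymes like that of ubiquitin. UBA7 is the activating enzyme (E1), UBE2L6 the conjugating enzyme (E2) and HERC5 the main ligase (E3) in human cells, whereas in mouse that part is played by Herc6. USP18 takes ISG15 off its substrates again and also binds the type I interferon receptor, where it dampens signalling. The genes are classical targets of type I interferon, which acts through the factor ISGF3, which holds STAT2 and IRF9, on a promoter element known as the interferon-stimulated response element (ISRE).

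RefSeq promoter sequences on GRCh38.p14 were matched for 4 of the 6 genes, and the 250 bases before the start are shown for these because the mark was measured over them. They lie at chr1:1013247-1013496 (ISG15), chr11:57567936-57568185 on the minus strand (UBE2L6, the first of its 2 listed starts), chr4:88456869-88457118 (HERC5) and chr4:88378602-88378851 (HERC6). Capitals mark matches on either strand to the ISRE core, searched as GAAA, any 2 bases and GAAA.
ISG15: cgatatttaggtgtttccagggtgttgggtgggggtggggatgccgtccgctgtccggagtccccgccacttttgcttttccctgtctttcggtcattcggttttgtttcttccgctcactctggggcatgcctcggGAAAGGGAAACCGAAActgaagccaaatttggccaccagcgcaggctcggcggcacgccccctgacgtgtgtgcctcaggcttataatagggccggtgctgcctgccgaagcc
UBE2L6: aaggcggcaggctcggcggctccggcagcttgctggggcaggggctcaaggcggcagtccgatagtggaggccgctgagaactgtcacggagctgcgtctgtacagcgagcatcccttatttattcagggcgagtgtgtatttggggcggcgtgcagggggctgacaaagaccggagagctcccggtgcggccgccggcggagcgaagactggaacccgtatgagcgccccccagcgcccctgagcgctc
HERC5: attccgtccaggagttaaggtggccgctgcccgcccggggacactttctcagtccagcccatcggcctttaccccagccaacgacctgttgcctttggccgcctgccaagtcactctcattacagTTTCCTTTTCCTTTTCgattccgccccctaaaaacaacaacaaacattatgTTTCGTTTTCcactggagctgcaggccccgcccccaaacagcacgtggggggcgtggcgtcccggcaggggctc
HERC6: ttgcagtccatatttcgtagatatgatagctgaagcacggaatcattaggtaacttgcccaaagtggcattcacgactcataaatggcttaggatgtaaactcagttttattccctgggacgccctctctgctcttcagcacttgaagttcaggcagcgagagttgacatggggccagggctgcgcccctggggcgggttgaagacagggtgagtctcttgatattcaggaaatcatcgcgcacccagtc
The ISG15 window held 2 overlapping matches on the gene's own strand, from bases -113 to -98 counted from the start. The HERC5 window held 3 matches on the opposite strand, of which 2 overlapped between bases -125 and -110 and the third lay at -74 to -65. No match was found in the UBE2L6 or HERC6 windows, which says only that these letters are absent from these windows. Of 34943 promoter windows of the same length, 1056 (3.02%) held at least 1 match. The core of the gamma-activated site, searched as TTC, any 3 bases and GAA, was found in none of the windows shown and in 6.56% of all windows.

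Values are scores, the authors' normalised and rounded peak counts, and changes are differences of log2(score + 1). Total scores ran from 3277561 to 3317881 in the IRF1-guide libraries and from 3408527 to 3460390 in the control libraries, and mean scores over the 8 libraries had a median of 47.4 across peaks. The depth in reads is unknown. All 9 ductal epithelial marker genes overlapped a peak, with summed scores of 6515 to 7101 in IRF1-guide libraries and 6790 to 8654 in control libraries. Of 21 marker genes of other cell types, 11 overlapped a peak, with summed scores of 7312 to 8561 in IRF1-guide libraries and 6197 to 7691 in control libraries. Those without a peak included CD3D, CD2, MS4A1, CD79A, CD163, LUM, DCN, PDGFRB and PRSS1. The part of these differences in the results below was not tested. The region over the IRF1 gene scored 1187 to 2265 in IRF1-guide libraries and 1306 to 3003 in control libraries, which does not measure the guide's effect on the protein.

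H3K27ac rose at all 7 peaks of the pathway after 2 hours of hIFNb. Over all clones the log2 change was largest at HERC6 and HERC5 and smallest at ISG15, whose broad peak also covers other genes. Every peak was higher with hIFNb in each of the 4 clones, as were 19.9% of all peaks. In the group-means model of limma, 7 of 7 peaks passed the test upward at an adjusted p under 0.05, against 6.55% of all peaks upward, 2.58% downward and 9.13% in either direction. With the clone as a block 7 of 7 rose, against 16.6% of all peaks upward and 32.4% in either direction. The 6 peaks over gene starts had a median log2 change of 2.01, against 0.11 over the 9903 peaks with a TSS named inside. At 6 of the 7 peaks the 4 hIFNb libraries lay above the 4 others, as at 7.22% of all peaks, and UBA7 was the exception.

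**Figure D1:**
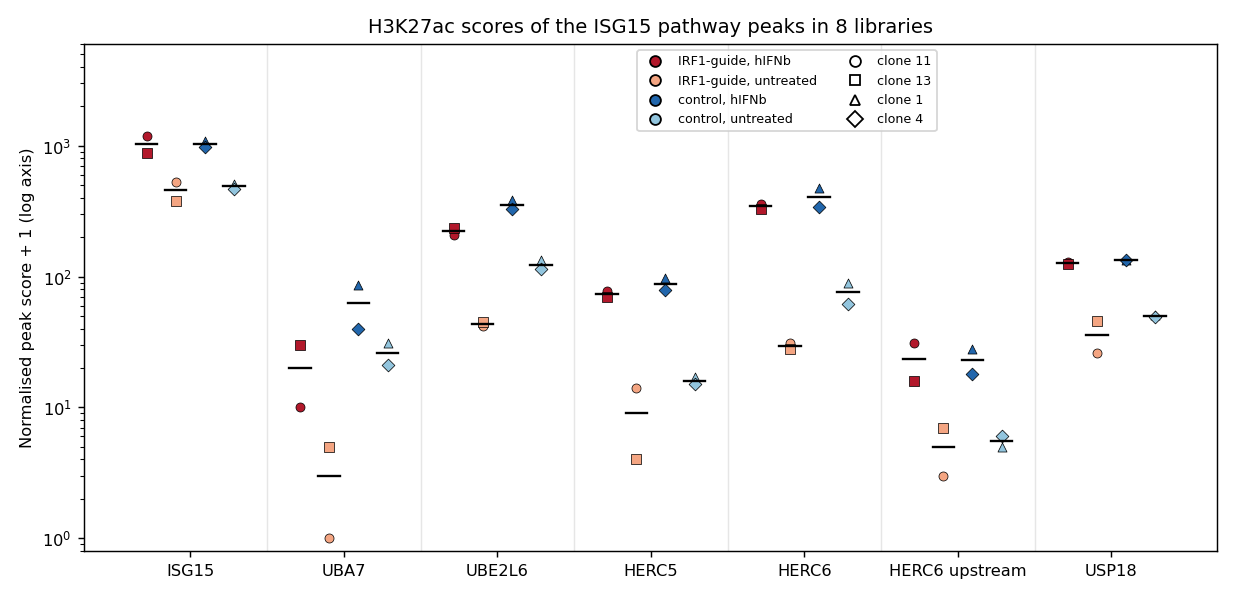
Normalised H3K27ac score plus 1 (log axis) of the 7 pathway peaks in each of the 8 libraries, coloured by group, with the clone as symbol and the group mean (of 2 libraries) as a bar. Every hIFNb library lies above every untreated library at 6 peaks, while at UBA7 the IRF1-guide libraries with hIFNb (9 and 29) reach no further than the control libraries without it (30 and 20).

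The modifier gene ISG15 lay inside the broadest of the 7 regions, a peak of 28537 bp (chromosome 1, 999619 to 1028155) that covers the whole gene. The authors named RPL39P12 as the TSS in this peak, and RefSeq places the start of HES4 and part of AGRN in it as well, so its score is not that of ISG15 alone. It scored 1184 and 885 in IRF1-guide clones 11 and 13 with hIFNb and 532 and 378 in the same clones without it. In control clones 1 and 4 it scored 1083 and 986 with hIFNb and 512 and 467 without. All 4 hIFNb libraries were above all 4 untreated ones, and the IRF1-guide and control libraries overlapped in both conditions. The log2 change over all clones was 1.13 ± 0.14 (SE, limma, adjusted p = 0.000956). The 4 clones differed little, with changes of 1.15 and 1.23 in IRF1-guide clones 11 and 13 and 1.08 and 1.08 in control clones 1 and 4.

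The E1 gene UBA7 had a narrow and weak peak of 2382 bp over its start (chromosome 3, 49812439 to 49814820), of which 1515 bp lay in the gene. It scored 9 and 29 in IRF1-guide clones 11 and 13 with hIFNb, and 0 and 4 without. Control clones 1 and 4 scored 85 and 39 with hIFNb and 30 and 20 without. Both IRF1-guide libraries were below both control libraries in each condition. The change over all clones was 2.08 ± 0.54 (limma, adjusted p = 0.0384), on a log2 scale that at scores this low depends on the added 1, and it was 1.19 (adjusted p = 0.0298) with 8 added. The call was lost without IRF1-guide clone 13 with hIFNb (adjusted p = 0.112), clone 11 without hIFNb (0.0904), control clones 1 and 4 with hIFNb (0.133 and 0.0548) or without it (0.0826 and 0.111). After quantile normalisation the adjusted p was 0.0505.

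The E2 gene UBE2L6 had a peak of 9211 bp (chromosome 11, 57562514 to 57571724) that holds its start and 5422 bp of the gene. It scored 208 and 234 in IRF1-guide clones 11 and 13 with hIFNb and 41 and 44 without, against 381 and 326 in control clones 1 and 4 with hIFNb and 132 and 113 without. No libraries of different groups overlapped at this peak. The change was 1.94 ± 0.14 over all clones (limma, adjusted p = 7.35e-05). It was 2.32 and 2.39 in IRF1-guide clones 11 and 13 and 1.52 in both control clones.

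The ligase gene HERC5 had a peak of 6310 bp (chromosome 4, 88454267 to 88460576), which also holds the start of the uncharacterised gene LOC102723458. It scored 77 and 69 in IRF1-guide clones 11 and 13 with hIFNb and 13 and 3 without, against 97 and 78 in control clones 1 and 4 with hIFNb and 16 and 14 without. Untreated scores were thus low in all clones, and every hIFNb library stood far above them. The change was 2.88 ± 0.35 (limma, adjusted p = 0.000848), with the largest value, 4.13, in IRF1-guide clone 13, whose untreated score was 3. The other 3 clones lay between 2.40 and 2.53.

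The neighbouring gene HERC6 had a peak of 15510 bp (chromosome 4, 88370880 to 88386389) with no other TSS in it. It scored 361 and 330 in IRF1-guide clones 11 and 13 with hIFNb and 30 and 27 without, against 471 and 338 in control clones 1 and 4 with hIFNb and 89 and 61 without. The treated libraries of the 2 kinds of clone overlapped, and the untreated ones did not. The change was 2.99 ± 0.18 (limma, adjusted p = 2.77e-05), made up of 3.55 and 3.56 in IRF1-guide clones 11 and 13 and 2.39 and 2.45 in control clones 1 and 4. Of the 9902 other peaks with a TSS named inside, 10 had a larger change.

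The small peak upstream of HERC6 (1884 bp, chromosome 4, 88367436 to 88369319) held no TSS. It scored 30 and 15 in IRF1-guide clones 11 and 13 with hIFNb and 2 and 6 without, against 27 and 17 in control clones 1 and 4 with hIFNb and 4 and 5 without. The change was 2.16 ± 0.39 (limma, adjusted p = 0.00772), with IRF1-guide and control libraries overlapping in both conditions. At scores this low the change depends on the added 1, and it was 1.28 (limma, adjusted p = 0.00453) with 8 added. HERC6 itself thus had 2 peaks, and both passed the test.

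The isopeptidase gene USP18 had a peak of 4373 bp over its start (chromosome 22, 18148805 to 18153177). It scored 128 and 123 in IRF1-guide clones 11 and 13 with hIFNb and 25 and 45 without, against 134 in both control clones with hIFNb and 50 and 48 in clones 1 and 4 without. The treated libraries were within 11 score units of each other. The change was 1.65 ± 0.20 (limma, adjusted p = 0.000843), 2.31 and 1.43 in IRF1-guide clones 11 and 13 and 1.40 and 1.46 in control clones 1 and 4. USP18 has a partial copy, USP41 on the same chromosome, and how reads shared by both were counted is not given in the sources used here.

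Between genes, the size of the response and the level did not follow the same order. The value at ISG15 is that of a peak shared with other genes. By log2 change, with 1 added to the scores, the order was HERC6, HERC5, HERC6 upstream, UBA7, UBE2L6, USP18 and ISG15. USP18 exceeded ISG15 in 4 of 4 clones (mean difference 0.52 ± 0.43 SD), and UBE2L6 exceeded USP18 in 4 of 4, by differences between 0.00 and 0.95. HERC6 exceeded HERC5, and UBA7 exceeded UBE2L6, in 2 of 4 clones each, so that these neighbours did not differ beyond the spread between clones. Among the other TSS-holding peaks, with 1 added, 12 had a larger change than HERC5, 49 than UBA7, 70 than UBE2L6, 109 than USP18 and 234 than ISG15.

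Per kb of peak, levels with hIFNb were highest at ISG15 in IRF1-guide clones (a score of 36.3 per kb), followed by USP18 (28.7), UBE2L6 (24.0), HERC6 (22.3), the upstream peak (11.9), HERC5 (11.6) and UBA7 (7.98). In control clones with hIFNb the order was UBE2L6 (38.4), ISG15 (36.3), USP18 (30.6), HERC6 (26.08), UBA7 (26.03), HERC5 (13.9) and the upstream peak (11.7). Without hIFNb the IRF1-guide clones had 15.9 per kb at ISG15, 8 at USP18 and 4.61 at UBE2L6, and between 0.84 and 2.12 at the other peaks. The control clones without hIFNb had 17.2 per kb at ISG15, 13.3 at UBE2L6, 11.2 at USP18, 10.5 at UBA7 and 4.84 at HERC6, and 2.38 to 2.39 at HERC5 and the upstream peak. The neighbours UBE2L6 and HERC6 overlapped between libraries in IRF1-guide clones with hIFNb, as did the last 3 of that order. In control clones UBE2L6 and ISG15, HERC6 and UBA7, and HERC5 and the upstream peak overlapped with hIFNb, and USP18 and UBA7, and the last 2, without it. UBA7, at 16.4 and 35.7 per kb in the control libraries with hIFNb, also overlapped USP18, ISG15 and UBE2L6 there, so its place in that order is not resolved. Widths differ because the authors' peaks differ in how far they extend, and the level of the ISG15 peak is not that of ISG15 alone.

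Taken alone, the IRF1-guide clones and the control clones each gave 5 called rises and no called fall among the 7 peaks. In the IRF1-guide clones these were HERC6 (3.55 ± 0.25, limma, adjusted p = 0.000369), HERC5 (3.304 ± 0.49, 0.0101), UBE2L6 (2.35 ± 0.20, 0.000938), USP18 (1.87 ± 0.28, 0.0103) and ISG15 (1.19 ± 0.20, 0.0169), against called rises at 1.2%, falls at 0.025% and either at 1.22% of all peaks. In the control clones they were HERC5 (2.46 ± 0.49, 0.0202), HERC6 (2.42 ± 0.25, 0.00112), UBE2L6 (1.52 ± 0.20, 0.00306), USP18 (1.43 ± 0.28, 0.019) and ISG15 (1.08 ± 0.20, 0.0142), against called rises at 4.07%, falls at 0.676% and either at 4.74% of all peaks. UBA7 had a change of 2.95 ± 0.76 in IRF1-guide clones (adjusted p = 0.121) and 1.20 ± 0.76 in control clones (0.424). The peak upstream of HERC6 had 2.28 ± 0.55 (0.0952) and 2.04 ± 0.55 (0.0652). With the clone as a block, so that hIFNb and untreated libraries are set against each other within a clone, all 7 peaks rose in IRF1-guide clones and in control clones, against rises at 7.44% and 13.4% of all peaks and calls in either direction at 14.1% and 24.6%. In that fit UBA7 had an adjusted p of 6.72e-06 in IRF1-guide clones and 0.0299 in control clones, and the upstream peak 0.00363 and 0.00493. The block fit spends a term on each clone, which leaves little of a peak's own spread to measure. Its p-values therefore lean on the spread shared by all peaks.

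These calls in 1 kind of clone rest on few libraries. In IRF1-guide clones 2 peaks were called without clone 11 with hIFNb, where ISG15 had an adjusted p of 0.187 and HERC5 and USP18 had 0.113, and 3 without clone 13 with hIFNb, where HERC5 had 0.0803 and USP18 0.0853. Without IRF1-guide clone 11 without hIFNb 4 were called, with USP18 at 0.0545, and without clone 13 without hIFNb ISG15 had 0.112 and UBA7 passed at 0.0422. In control clones 1 peak, HERC6, was called without clone 1 with hIFNb, where UBE2L6 had 0.0516, and 2 peaks were called without each of the other 3 control libraries. ISG15 had 0.0669 to 0.121, HERC5 0.0879 to 0.145 and USP18 0.096 to 0.125 over these 4. Leaving out IRF1-guide clone 11 without hIFNb took the control count to 6, with the upstream peak at 0.0462.

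**Figure D2:**
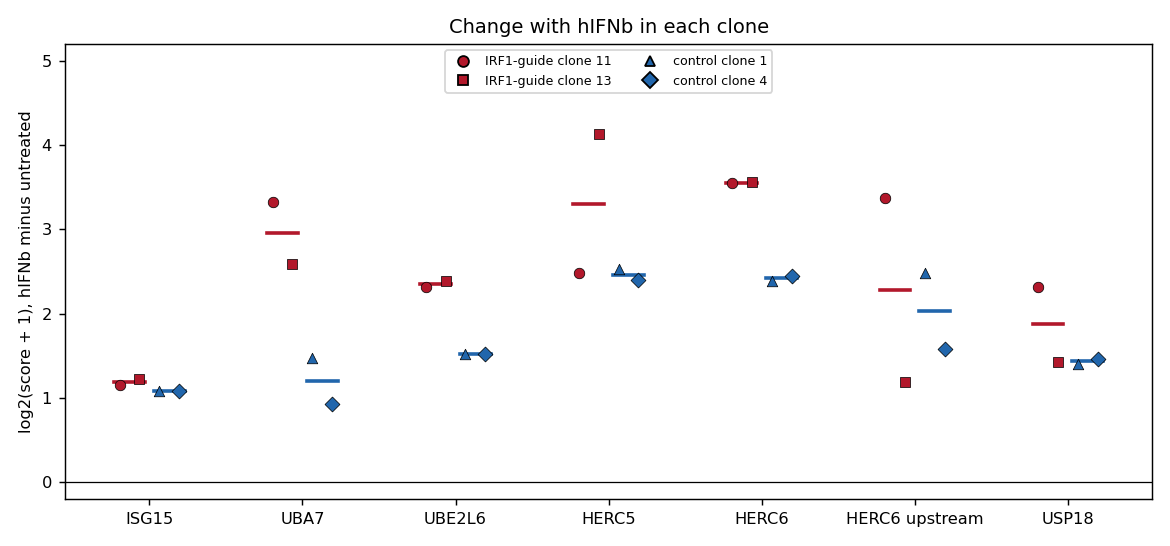
Difference in log2(score + 1) between the hIFNb and the untreated library of each clone at the 7 peaks, with IRF1-guide clones 11 and 13 in red and control clones 1 and 4 in blue and bars at the mean of 2 clones. All 28 differences are above 0, and at ISG15, UBA7, UBE2L6 and HERC6 both IRF1-guide clones lie above both control clones.

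The study's design also asks whether the response differed between IRF1-guide and control clones. HERC6 had a response larger by 1.13 ± 0.35 in IRF1-guide clones, and UBE2L6 one larger by 0.83 ± 0.28. The limma group-means model called no peak for this difference among the 7 or among all 31961 (0%), with an adjusted p of 1 at each of the 7, and at an unadjusted p under 0.05 there were 2 of 7 (HERC6 and UBE2L6) against 3.94% of all peaks. With the clone as a block both passed, HERC6 with an adjusted p of 0.00663 and UBE2L6 with 0.0464, against 0.106% of all peaks called upward and 0.763% in either direction. The estimates were 1.75 ± 1.07 at UBA7, 0.84 ± 0.70 at HERC5, 0.44 ± 0.40 at USP18, 0.25 ± 0.78 at the upstream peak and 0.11 ± 0.28 at ISG15, where the 95% interval ran from -0.51 to 0.73. At 4 of the 7 peaks both IRF1-guide clones changed more than both control clones, against 20.6% of all peaks.

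In score units the gains were not larger in IRF1-guide clones at HERC6 and UBE2L6. The mean gain at HERC6 was 317 in IRF1-guide clones and 329.5 in control clones, and at UBE2L6 it was 178.5 and 231. At HERC5 it was 65 and 72.5, and at UBA7 17 and 37. At ISG15 it was 579.5 and 545, at USP18 90.5 and 85, and at the upstream peak 18.5 and 17.5. The larger log2 changes at HERC6, UBE2L6 and UBA7 thus stood beside lower untreated scores in the IRF1-guide clones. With 8 in place of 1 added to the scores, the difference in response was 0.96 at HERC6, 0.71 at UBE2L6 and 0.34 at UBA7.

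Without hIFNb, UBE2L6, HERC6 and UBA7 had lower scores in IRF1-guide clones than in control clones. Mean scores were 42.5 ± 2.1 in IRF1-guide clones and 122.5 ± 13.4 in control clones at UBE2L6 (SD, n = 2 each), 28.5 ± 2.1 and 75 ± 19.8 at HERC6, and 2 ± 2.8 and 25 ± 7.1 at UBA7. No peak passed the test in this comparison, among the 7 or among all peaks (0%). With a block by the ending of the column names, chosen after seeing the data and not explained in the labels, UBE2L6 (adjusted p = 0.0133), HERC6 (0.0167) and UBA7 (0.0464) passed, against 1.26% of all peaks. Without that block UBE2L6 came closest, with a log2 difference of -1.502 ± 0.20 (limma, adjusted p = 0.0532), then HERC6 with -1.34 ± 0.25 (0.09) and UBA7 with -3.51 ± 0.76 (0.128). HERC5 differed by -1.09 ± 0.49 (0.415), USP18 by -0.53 ± 0.28 (0.494), the upstream peak by -0.26 ± 0.55 (0.891) and ISG15 by -0.12 ± 0.20 (0.849). At an unadjusted p under 0.05 limma had 4 of the 7 peaks (UBA7, UBE2L6, HERC6 and HERC5), against 12% of all peaks. Both IRF1-guide libraries were below both control libraries at 5 of the 7, those 4 and USP18, against 22.5% of all peaks.

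With hIFNb the differences between the clones were smaller on the log2 scale. In score units the control mean stood further above the IRF1-guide mean than without hIFNb at UBE2L6, HERC6, HERC5 and UBA7. It did not at ISG15, USP18 or the upstream peak. At UBA7 the means with hIFNb were 19 ± 14.1 in IRF1-guide clones and 62 ± 32.5 in control clones. Mean scores were 221 ± 18.4 in IRF1-guide clones and 353.5 ± 38.9 in control clones at UBE2L6, 345.5 ± 21.9 and 404.5 ± 94 at HERC6, 125.5 ± 3.5 and 134 ± 0 at USP18, and 1034.5 ± 211.4 and 1034.5 ± 68.6 at ISG15 (SD, n = 2 each). None of the 7 peaks passed the test, against 2.43% of all peaks in either direction, 2.19% lower and 0.238% higher in IRF1-guide clones. The log2 difference was -0.67 ± 0.20 at UBE2L6 (limma, adjusted p = 0.12) and -1.76 ± 0.76 at UBA7 (0.285), the 2 peaks with an unadjusted p under 0.05, a level reached by 16.3% of all peaks. At ISG15 it was -0.01, with a 95% interval from -0.45 to 0.43, and at USP18 -0.09, from -0.72 to 0.53. HERC6 had -0.21 (-0.76 to 0.34), HERC5 -0.25 (-1.34 to 0.84) and the upstream peak -0.01 (-1.23 to 1.21), and the sign at ISG15, the upstream peak and HERC6 turned in some of the alternatives. Both IRF1-guide libraries were below both control libraries at UBA7, UBE2L6, HERC5 and USP18, 4 of 7 peaks against 24.2% of all peaks.

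**Figure D3:**
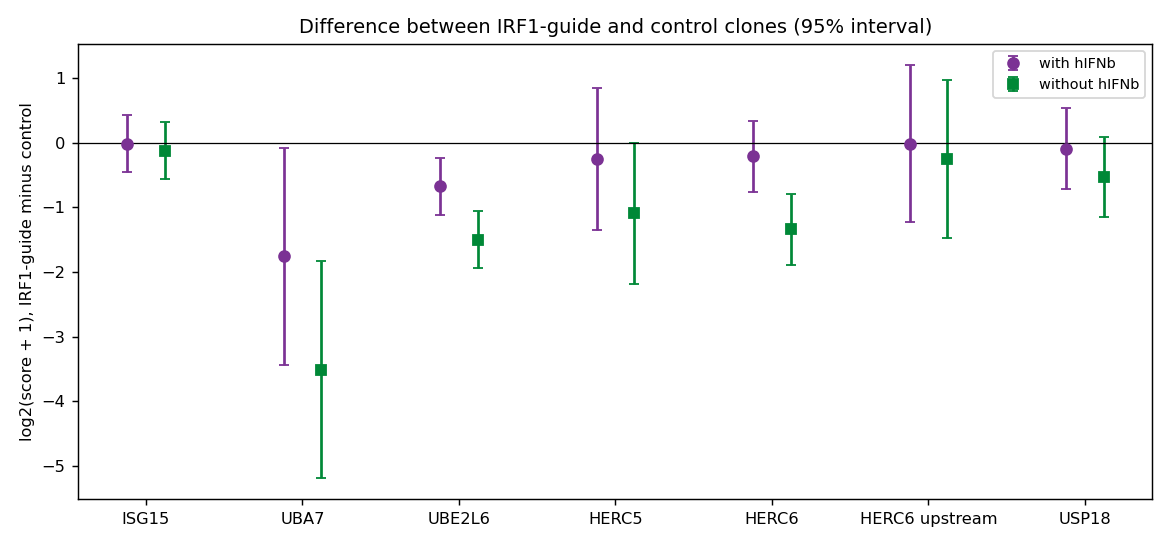
Difference in log2(score + 1) between IRF1-guide and control clones at the 7 peaks, with hIFNb (circles) and without it (squares), from limma over all 8 libraries, with 95% intervals. The untreated differences at UBE2L6 (-1.502), HERC6 (-1.34) and UBA7 (-3.51) are larger in size than those with hIFNb (-0.67, -0.21 and -1.76), and those at ISG15 are near 0 in both conditions.

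The genes around the pathway fell into those that rose and those that were not called. In the list of the type I interferon receptor, its kinases and ISGF3, 4 of 7 promoter peaks rose over all clones and none fell, with a median log2 change of 0.95. Over all TSS-holding peaks 6.09% rose, with the median of 0.11 given above, and 19.3% rose with the clone as a block. They included the transcription factor genes STAT2 (1.78 ± 0.16, limma, adjusted p = 0.000212) and IRF9 (1.34 ± 0.16, 0.000695) and the kinase gene JAK1 (0.95 ± 0.17, 0.0065). The receptor genes IFNAR1 (0.08 ± 0.17) and IFNAR2 (0.45 ± 0.25) and the kinase gene TYK2 (-0.05 ± 0.29) did not pass. Of the promoter peaks of 13 known ISG15 substrates, 6 rose and none fell, against the same 6.09%, with a median of 0.67, and 8 rose with the block. The 4 largest were at MX1, a dynamin-like antiviral GTPase (2.81 ± 0.17, adjusted p = 2.77e-05), IFIT1 (2.22 ± 0.11, 2.59e-05, in a peak the authors named IFIT1B), the RNA sensor gene RIGI, listed as DDX58 (1.88 ± 0.17, 0.000173), and EIF2AK2, the kinase PKR (1.42 ± 0.16, 0.000569). Those that did not pass included CGAS, a DNA sensor gene (0.67 ± 0.21, 0.0704), PCNA (-0.06 ± 0.22) and UBE2N (-0.16 ± 0.24).

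Other enzymes that handle ISG15 showed no called change. TRIM25 and ARIH1, ligases reported to act on ISG15 as well, had 0.27 ± 0.11 (limma, adjusted p = 0.163) and 0.28 ± 0.17 (0.332), and the proteases USP16 and USP5, which also accept ISG15, 0.13 ± 0.17 (0.662) and -0.14 ± 0.18 (0.672). None of the 5 promoter peaks matched in this list passed, 1 had an unadjusted p under 0.05, and 1 rose with the clone as a block. These counts are near the shares over all TSS-holding peaks, of which 6.09% were called upward, 19.9% had an unadjusted p under 0.05 and 19.3% rose with the block. Of the promoter peaks of 10 other ubiquitin-like modifier genes none passed, with a median of 0.20, while 1 had an unadjusted p under 0.05 and 3 rose with the block. The shares to set beside these counts are the same 6.09%, 19.9% and 19.3%. Of 13 promoter peaks of other E1, E2 and E3 genes 1 rose, that of UBE2Z, an E2 that works with UBA6 (0.87 ± 0.16, limma, adjusted p = 0.00896). With the block 5 rose, and the shares are again 6.09% without the block and 19.3% with it. Among the relatives of the pathway enzymes UBA1, the E1 of ubiquitin, had 0.57 ± 0.20 (0.102), UBA6 0.34 ± 0.17 (0.251), HERC3 0.30 ± 0.15 (0.232, in a peak shared with PYURF) and HERC4 0.33 ± 0.15 (0.195).

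**Figure D4:**
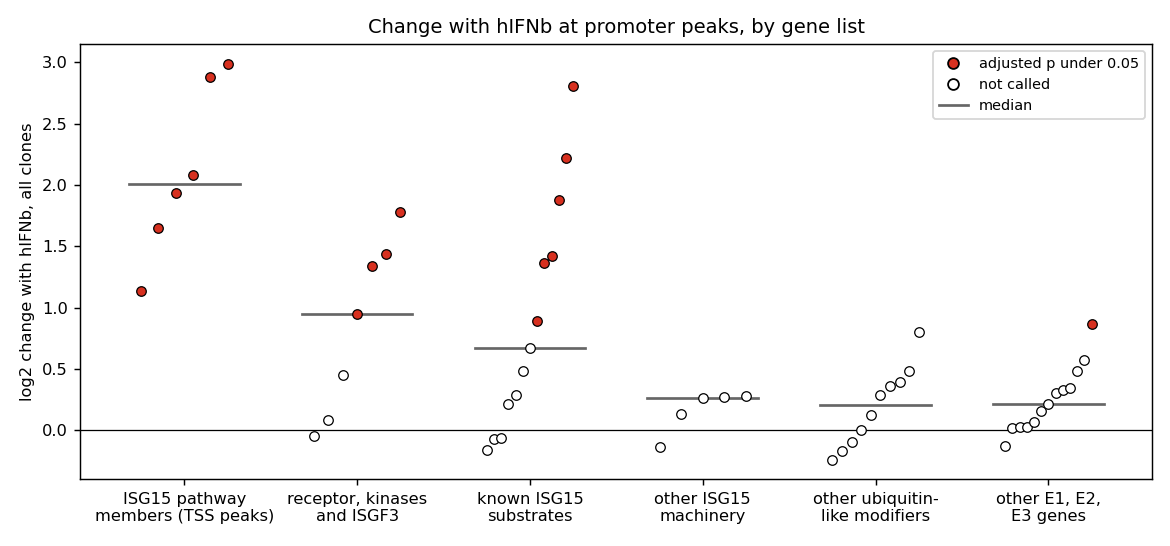
Change in log2(score + 1) with hIFNb over all clones at promoter peaks, 1 per gene, for the 6 pathway genes and 5 lists of related genes, with called peaks filled and the list's median as a line. The pathway genes lie between 1.13 and 2.99 with a median of 2.01, and the called peaks elsewhere belong to 4 genes of the receptor and ISGF3 list, to 6 substrates and to UBE2Z.

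The nearest peaks on either side of the pathway genes, 10 in all, were also read, a choice made after the values were seen. Of these 4 rose, against 6.55% of all peaks, none fell, and the median change was 0.34. A peak 0.27 kb from the start of SERPING1, a complement inhibitor gene, 23.7 kb beyond the UBE2L6 peak, rose by 2.88 ± 0.51 (limma, adjusted p = 0.007). Its mean scores were 25 with hIFNb and 2.5 without in IRF1-guide clones, and 12.5 and 1.5 in control clones. At untreated scores this low the size of the change depends on the added 1. A peak 49.1 kb beyond the HERC5 peak rose by 1.82 ± 0.20 (0.000476). The authors named NCOA4P2 as the TSS in it, and the TSS of PIGY lies 6.29 kb away. The peak 56.1 kb from that of USP18, between PEX26 and TUBA8, rose by 1.16 ± 0.22 (0.00995). The peak 30.1 kb beyond ISG15, past AGRN and with LOC100288175 named as its TSS, rose by 0.86 ± 0.21 (0.0314). The nearest peaks of UBA7, at IP6K1 (0.31 ± 0.28) and MST1R (0.28 ± 0.13), did not pass, nor did TIMM10 beside UBE2L6 (0.34 ± 0.19) or PLEKHN1 beside ISG15 (0.34 ± 0.23). The peak 29.01 kb from that of HERC6, between PPM1K-DT and LOC105377326, had 0.07 ± 0.32. The peak 794.27 kb from that of USP18, between PRODH and DGCR5, had -0.01 ± 0.26. Neither passed, with the block or without it. With the clone as a block MST1R (limma, adjusted p = 0.00544) and PLEKHN1 (0.0197) passed, and IP6K1 (0.355) and TIMM10 (0.109) did not. In that fit 16.6% of all peaks rose and 32.4% were called in either direction.

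Profiles over the 8 libraries were compared by the Euclidean distance between log2 scores centred on each peak's mean, as a description. Nearest to the mean of the 6 genes were CFB (0.59), a complement factor gene, LAP3 (0.65), RTP4 (0.65), HLA-C (0.66), which encodes an MHC class I protein, and OAS3 (0.67), an antiviral oligoadenylate synthetase gene. Taken singly, HERC6 was nearest to MX1 (0.37), UBE2L6 to RTP4 (0.37), ISG15 to TYMP (0.32) and USP18 to LOC100310756 (0.38). HERC5 was nearest to EPSTI1 (1.00) and UBA7 to ETV7-AS1 (2.49), both at larger distances than the nearest peaks of the other pathway genes. The second nearest were SHFL for HERC6 and HERC5 (0.81 and 1.03), HLA-C for UBE2L6 (0.52), AVEN for ISG15 (0.39), OASL for USP18 (0.57) and TLR3 for UBA7 (2.61). Among the pathway genes themselves the closest pairs were HERC5 and HERC6 (1.24), ISG15 and USP18 (1.29) and UBE2L6 and USP18 (1.33), and the most distant were ISG15 and UBA7 (4.78).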

How the data were processed

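H3K27ac ChIP-seq libraries of CFPAC1 clones were made with the antibody ab4729, per the labels. Bowtie2 and GRCh38 are named in the submitters' processing notes. How peaks were called, counted and scaled is not given in the sources used here. In their table the authors deposited a score for every peak in every library, a normalised count rounded to whole numbers, with peak widths and TSS distances in kb from the peak edge. Being a score and not a raw count, it was taken to log2(score + 1) for all tests.

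All peaks exceeded 0 in at least 2 libraries and were kept. A group-means model of all 8 libraries was fitted to the 31961 peaks in limma 3.58.1 (R 4.3.3) with a trended prior variance, p-values were adjusted by Benjamini-Hochberg over all peaks, and peaks were called at an adjusted p under 0.05. Errors of log2 changes are SE, and those of scores are SD. The replicates are clones of 1 line, and each pair of libraries from 1 clone is treated as independent in this model. In the main fit samples were not paired by clone, and in the fit with the clone as a block they were. The hIFNb and untreated deviations from the group mean correlated within clones, at 0.392 in IRF1-guide and 0.437 in control clones. Within each kind of clone the ending of the column names divides the libraries as the clone does. The correlations therefore cannot be assigned to the clone rather than to what the ending marks. Alternatives were 8 as the added constant, a mean score of at least 20, quantile normalisation, the clone as a block, members within 10 kb, each library left out, and, added after seeing the data, a block by column ending. The fit was tested on simulated data, where 68 of 100 peaks changed by 2 on the log2 scale over all clones were called with 5 false calls among 31961 peaks. Smaller changes were planted too, and their recovery is not reported here. The simulated noise was independent between libraries, so the correlation within clones was not part of this test.

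The members and lists were chosen with earlier results of these data known. All 7 member peaks are named. Up to 4 called genes per list are named, with the paralogs that have a promoter peak, and other named genes were chosen after their values were seen. A list gene has 1 peak, the highest-scoring one that holds its TSS by the authors' or the RefSeq annotation. Some list genes are not reported here.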

Additional observations from a re-analysis of the deposited data

Results flagged for a closer look

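The response to hIFNb differed between IRF1-guide and control clones at HERC6 and UBE2L6 when the clone was fitted as a block. The difference in log2 change was 1.13 at HERC6 (3.55 in IRF1-guide clones and 2.42 in control clones, limma, adjusted p = 0.00663) and 0.83 at UBE2L6 (2.35 in IRF1-guide clones and 1.52 in control clones, adjusted p = 0.0464). Both IRF1-guide clones changed more than both control clones at these peaks, as at 20.6% of all peaks. The block fit called 0.106% of all peaks upward for this difference and 0.763% in either direction. In score units the mean gain was not larger in IRF1-guide clones. It was 317 against 329.5 in control clones at HERC6, and 178.5 against 231 at UBE2L6. Without the block neither passed, with an adjusted p of 1 for both.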

How the results depend on the processing

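Over all clones 2918 peaks were called, 1516 in control clones, 391 in IRF1-guide clones, 0 for the difference in response, and between IRF1-guide and control clones 0 without hIFNb and 776 with it. With the clone as a block (replicate block) these became 10363, 7867, 4502 and 244, and the pathway peaks called for the difference rose to 2. No paired analysis was possible for IRF1-guide against control clones because they share no clone. With 8 added to the scores 3 peaks were called between the clones without hIFNb and 1354 with it. With a block by column ending, a choice made after seeing the data, the counts were 5181, 2992, 767, 0, 403 and 1904, and 3 pathway peaks passed between the clones without hIFNb (UBE2L6, HERC6 and UBA7). With 1 library left out the counts ran from 1426 to 2111, 206 to 1489, 44 to 339, 0 throughout, 0 to 1 and 0 to 851. The pathway peaks called ran from 6 to 7 over all clones, 1 to 6 in control clones and 2 to 5 in IRF1-guide clones. After quantile normalisation the difference between clones with hIFNb was 0.041 at ISG15 and 0.093 at the peak upstream of HERC6, against the sign reported. With 1 library left out it ran from -0.22 to 0.20 at ISG15, -0.49 to 0.47 at the upstream peak and -0.45 to 0.030 at HERC6. Without hIFNb it ran from -0.37 to 0.12 at ISG15 and -0.87 to 0.35 at the upstream peak. The difference in response ran from -0.14 to 0.36 at ISG15, -0.37 to 0.86 at the upstream peak and -0.062 to 1.75 at HERC5. The cause was not tested. The depth in reads is unknown, so what it limits cannot be stated.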
